A study of Mus musculus with 4 samples.

Results

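Complement is a set of secreted and membrane proteins that tag microbes and damaged cells, and 9 of its genes were followed here in cultured mouse fibroblasts given tumour necrosis factor alpha (TNF). The genes were taken as a fixed list of components and regulators: C3, C4b, C1s1, C1ra, Cfb, Cfd, Serping1, Cd55 and Cd59a. An entry in the deposited table of transcript levels, which holds 16612 gene symbols, was matched for 8 of the 9, while Cfd, the gene of the protease that cuts factor B, was not analysed here. Of those 8, the genes C3, C1s1, C1ra and Cfb reached at least 1 RPKM (reads scaled to transcript length and library size) in at least 1 library, and these 4 were compared among 14386 genes and unnamed entries that did so.

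The cells were mouse embryonic fibroblasts (MEFs), in 4 groups. Wild-type cells, labelled Mll1+/+, and cells labelled Mll1-/-, meaning that they lack Mll1 (now Kmt2a), a histone H3 lysine 4 methyltransferase, were each kept for 4 h with TNF or with a control solution. All 4 groups were grown in the same serum-supplemented medium. TNF was used at 10 ng/ml per the design text, although the treatment protocol prints another unit beside the same figure. Cells from 3 separate treatments were pooled before sequencing, so each group is 1 library, no spread between replicates can be measured, and no p-value is given anywhere. The labels do not say how many cell lines or embryos stand behind each genotype, so the genotype and the line cannot be told apart. In bulk RNA, fewer expressing cells and less RNA per cell cannot be told apart either.

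The libraries held between 19306506 and 27977248 reads, recovered from the deposited values. Cxcl1, a chemokine gene that TNF is known to induce, stood at 18.6 RPKM in the wild-type control, 319.9 with TNF, 9.14 in the control labelled Mll1-/- and 68.0 with TNF there. Kmt2a stood at 1.85, 2.11, 2.02 and 1.66 RPKM in the same order. Its RNA was therefore not lower in the control labelled Mll1-/- than in the wild-type control, and the ratio under TNF was 0.785 (0.705 to 0.874). Because the labels do not name the deleted part, this gene does not check the genotype label. Of 10 fibroblast markers 8 had an entry, and their summed level lay between 4114 and 5508 RPKM in the 4 libraries. Most of that sum was Vim and S100a4, while Col3a1 and Pdgfra stayed below 1 RPKM in both wild-type libraries. Vim, the mesenchymal intermediate filament gene, stood between 2097 and 2418 RPKM. Dcn, the gene of the matrix proteoglycan decorin, had 0 reads in both wild-type libraries, so this defining fibroblast marker was not detected there. Hepatocytes are the main source of complement in blood plasma, and 2 of 5 listed markers of them had an entry, Apoa1 and Serpina1a. These summed to at most 0.133 RPKM, while Alb, Ttr and Ahsg had no matched entry. Markers of endothelial and epithelial cells, 4 of 5 listed with an entry in each case, summed to at most 0.897 and 1.04 RPKM. Adipocyte markers, 3 of 6 listed with an entry, summed to between 9.33 and 18.3 RPKM, nearly all of it Pparg. Leukocyte markers, 4 of 9 listed with an entry, summed to between 9.53 and 25.8 RPKM, nearly all of it Cd14.

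Complement can be started in several ways. In the classical pathway the protease C1r activates its partner C1s, which then cuts C4 and C2, and in the alternative pathway factor B, cut by factor D, supplies the catalytic part of an enzyme that cuts C3. All routes meet at C3, whose fragments coat surfaces and recruit leukocytes, while C1 inhibitor (Serping1), Cd55 and Cd59 hold the cascade back. Liver makes most of the plasma pool, but fibroblasts also make components locally, and inflammatory cytokines are known to raise C3 there.

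Stretches of the promoters of C3, C1s1 and C1ra are shown because these are the 3 members with the highest mean level over the libraries and each holds a match described below. The sequences are from RefSeq on GRCm38.p6, written 5′ to 3′ on the gene's own strand, with positions counted from the annotated start site. Capitals mark matches to the letters searched.
C3, chr17:57228137-57228386, minus strand, the 250 bases before the start: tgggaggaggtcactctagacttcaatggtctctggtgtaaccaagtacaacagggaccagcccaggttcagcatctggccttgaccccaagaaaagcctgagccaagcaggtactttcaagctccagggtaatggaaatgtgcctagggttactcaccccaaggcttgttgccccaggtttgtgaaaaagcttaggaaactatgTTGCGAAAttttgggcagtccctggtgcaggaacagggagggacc
C1s1, chr6:124542360-124542609, minus strand, the 250 bases before the first of its 2 annotated starts: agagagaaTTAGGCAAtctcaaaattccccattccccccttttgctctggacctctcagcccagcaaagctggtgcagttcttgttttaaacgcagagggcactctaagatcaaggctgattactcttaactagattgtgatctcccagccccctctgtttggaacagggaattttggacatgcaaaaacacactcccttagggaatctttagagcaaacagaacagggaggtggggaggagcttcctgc
C1ra, chr6:124512632-124512661, plus strand, 30 bases from position 12 to position 41 after the start: gctgtTTATGCAAatgcttcaTTCCCTGAA

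Windows of 300 bases, from 250 before to 50 after the start, were matched for 6 of the 9 members: C3, C1s1, C1ra, Cfd, Cd55 and Cd59a. C4b, Cfb and Serping1 are named only. Both strands were searched for 4 sets of letters. The C/EBP letters TTGCNNAA were found in 10.8% of all 32851 windows of that length, and they matched in C3 from position -45 to -38, in C1s1 from -242 to -235 and in C1ra from 17 to 24. The second annotated start of C1s1 has a window without that match. The STAT letters TTCNNNGAA, which read the same on both strands, were found in 8.30% of windows and matched in C1ra from 33 to 41. The interferon response letters GAAANNGAA were found in 8.56% of windows and matched in Cd59a from -187 to -179. The NF-kB letters GGNNTTTCC, found in 5.82% of windows, matched in none of the members' windows. These matches are a description of letters, not of bound sites.

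The initiating proteases of the classical pathway differed from one another across the 4 libraries. C1ra, the gene of C1r, stood at 6.12 RPKM in the wild-type control, 8.55 in wild type with TNF, 8.73 in the control labelled Mll1-/- and 11.6 in cells so labelled with TNF. All 4 levels lay within a narrow range, with the lowest in the wild-type control and the highest where the Mll1-/- label and TNF coincided. As a ratio of reads per library total, TNF against control was 1.40-fold in wild type (95% counting interval 1.24 to 1.58) and 1.33-fold in cells labelled Mll1-/- (1.18 to 1.504). The label Mll1-/- against wild type was 1.42-fold without TNF (1.25 to 1.62) and 1.36-fold with it (1.22 to 1.52). These exact binomial intervals (Clopper-Pearson) describe counting alone. PCR copies of 1 molecule could not be recognised, and the intervals say nothing of the spread between cultures.

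C1s1, the gene of C1s, stood at 0.768 RPKM in the wild-type control, 1.72 with TNF, 5.92 in the control labelled Mll1-/- and 8.79 with TNF there. Both libraries labelled Mll1-/- were above both wild-type libraries, and within each genotype the TNF library was the higher. With TNF the reads were 2.24-fold higher in wild type (1.65 to 3.07) and 1.49-fold higher in cells labelled Mll1-/- (1.29 to 1.71). Against wild type, the cells labelled Mll1-/- were 7.71-fold higher without TNF (5.87 to 10.3) and 5.11-fold higher with it (4.23 to 6.21). The wild-type control value rests on 62 reads, against 346 to 494 in the libraries labelled Mll1-/-.

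C1r and C1s work as partners in one complex, and their transcripts stood in different proportion in the genotypes. C1s1 divided by C1ra, both in RPKM, was 0.125 in the wild-type control (0.0947 to 0.164), 0.201 with TNF (0.166 to 0.242), 0.679 in the control labelled Mll1-/- (0.589 to 0.781) and 0.756 with TNF there (0.671 to 0.853). The counting intervals of the wild-type quotients do not overlap those of the cells labelled Mll1-/-. Within wild type the control and TNF intervals do not overlap either, with near ends at 0.164 and 0.166, whereas those with the label Mll1-/- do. C1ra was the more abundant of the pair per length in every library.

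Mice carry a close copy of each of these genes, and reads could be shared between copies, so the split within a pair is uncertain. Of the 36-base words in the C1ra transcript, 54.4% also stand in C1rb, and of those in C1s1, 32.8% stand in C1s2. C1rb stood close to C1ra in every library, at 5.84, 7.67, 8.87 and 11.1 RPKM in wild-type control, wild-type TNF, control labelled Mll1-/- and TNF with that label. C1s2 stood at 0.366, 0.698, 3.11 and 4.26 RPKM, which is 8.49-fold higher in the control labelled Mll1-/- than in wild type (5.63 to 13.3) and 6.10-fold higher under TNF (4.49 to 8.43). With each pair summed, C1s over C1r was 0.0948, 0.149, 0.513 and 0.573, so the order of the quotients did not depend on the split between copies.

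C3, the component on which all routes converge, showed the widest range of the members. It stood at 2.23 RPKM in the wild-type control, 5.83 in wild type with TNF, 30.7 in the control labelled Mll1-/- and 46.3 with TNF there, from 318, 840, 3173 and 4597 reads. The control labelled Mll1-/- was already above the wild-type cells that had received TNF. The ratio between genotypes without TNF was 13.8-fold (12.3 to 15.5), which placed C3 at rank 60 from the top of 14386 on the scale of log2(RPKM + 0.5), and under TNF it was 7.93-fold (7.37 to 8.55), rank 111.

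**Figure D1:**
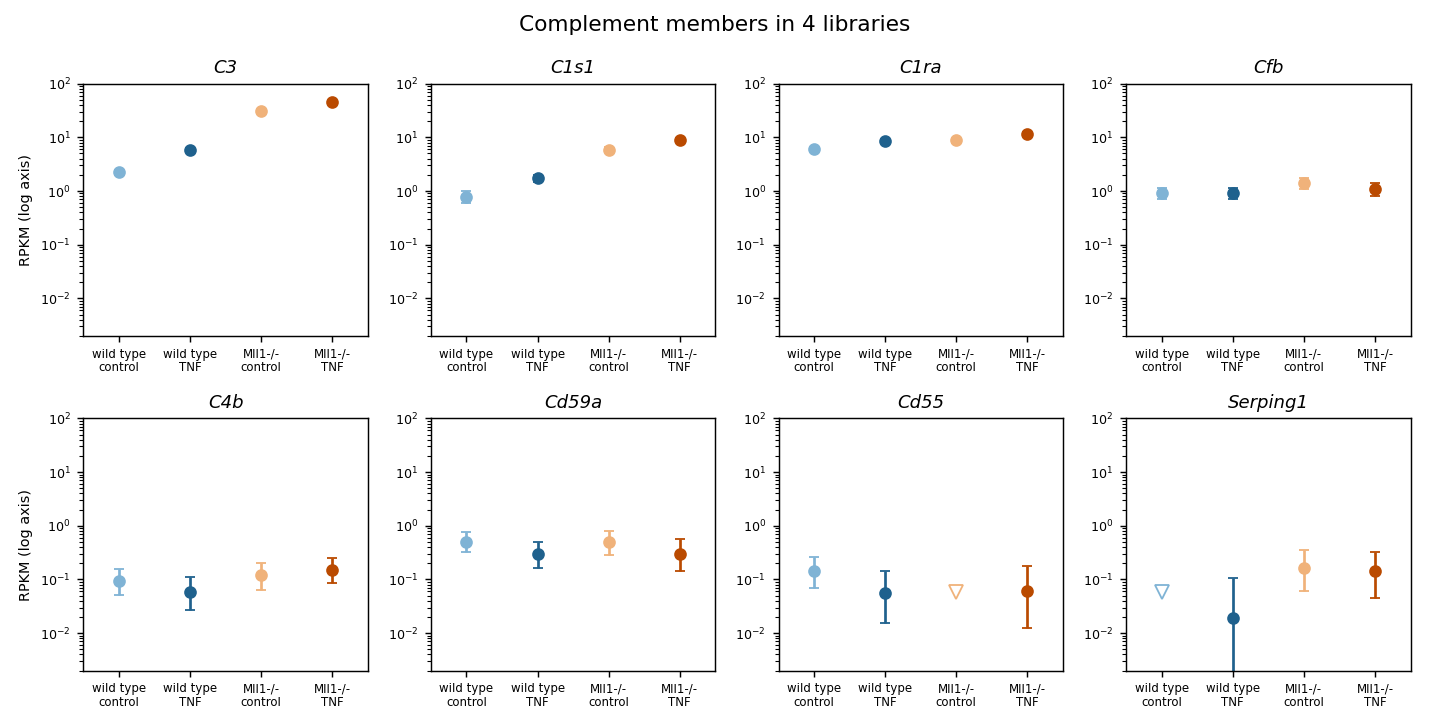
Level in RPKM (log axis) of the 8 members with an entry in the 4 libraries, 1 library per group. Points are the deposited values, bars are exact Poisson 95% counting intervals, and open triangles stand at the level of 3 reads where a library had 0 reads. C3 runs from 2.23 to 46.3 RPKM and C1s1 from 0.768 to 8.79, whereas C1ra stays between 6.12 and 11.6.

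With TNF, C3 reads were 2.62-fold higher in wild type (2.30 to 2.99) and 1.51-fold higher in cells labelled Mll1-/- (1.44 to 1.58). On the log2(RPKM + 0.5) scale, which understates differences of low genes, these were 1.22 and 0.58, ranks 46 and 725 of 14386. Ratio and amount gave opposite orders. C3 gained 3.61 RPKM with TNF in wild type and 15.6 RPKM in cells labelled Mll1-/-, where the starting level was higher. As reads, the log2 TNF ratio in cells labelled Mll1-/- less that in wild type was -0.80 (-0.99 to -0.60, a normal interval for counting error).

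The same pair of readings held for C1s1. It gained 0.951 RPKM with TNF in wild type and 2.87 RPKM in cells labelled Mll1-/-, while the log2 difference of the read ratios was -0.59 (-1.07 to -0.12). For C1ra the gains were 2.43 and 2.90 RPKM, and the log2 difference of -0.07 had an interval from -0.31 to 0.17 that includes 0.

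**Figure D2:**
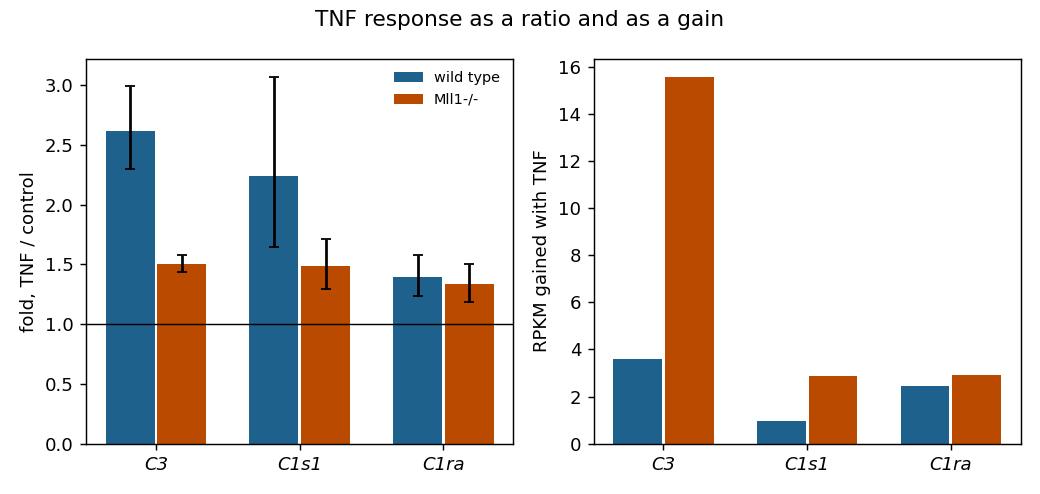
TNF response of C3, C1s1 and C1ra in wild-type cells and in cells labelled Mll1-/-, as the ratio of reads per library total with 95% counting intervals (left, line at 1) and as RPKM gained (right). For C3 the ratio is 2.62 in wild type and 1.51 with the label Mll1-/-, while the gains are 3.61 and 15.6 RPKM.

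C4b, the gene of C4, which C1s cuts, was near the limit of detection. It had 14, 9, 13 and 16 reads in wild-type control, wild-type TNF, control labelled Mll1-/- and TNF with that label, or 0.0930, 0.0593, 0.119 and 0.153 RPKM. A TNF response was not detectable at this depth in either genotype, and between genotypes the ratio was 1.28-fold without TNF (0.555 to 2.94) and 2.58-fold with it (1.07 to 6.61). Its near-identical copy C4a had 14, 13, 18 and 23 reads, and reads of the 2 genes could not be told apart with certainty. C2, the other substrate of C1s, had at most 8 reads in a library.

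Cfb, the alternative pathway component, was low and showed no TNF response beyond counting error. It stood at 0.899 RPKM in the wild-type control, 0.917 with TNF, 1.40 in the control labelled Mll1-/- and 1.07 with TNF there, from 57 to 78 reads. TNF against control was 1.02-fold in wild type (0.722 to 1.44) and 0.760-fold in cells labelled Mll1-/- (0.531 to 1.08), and both intervals include 1. Between genotypes it was 1.56-fold without TNF (1.11 to 2.19) and 1.16-fold with TNF (0.806 to 1.67), the last with an interval that includes 1.

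All 3 regulators on the list stayed below 1 RPKM in every library. Cd59a, whose product blocks the membrane attack complex, had 24, 14, 17 and 10 reads in wild-type control, wild-type TNF, control labelled Mll1-/- and TNF with that label, or 0.508, 0.294, 0.497 and 0.304 RPKM. The TNF library was the lower one in each genotype, but the ratios of 0.578 (0.276 to 1.16) and 0.612 (0.250 to 1.41) have intervals that include 1. Cd55, whose product speeds the decay of C3 convertases, had 10, 4, 0 and 3 reads in the same order. Against a limit of 3 reads for the library with 0, Cd55 was 2.41-fold lower in the control labelled Mll1-/- than in the wild-type control. The counting interval of the ratio begins at 1.62-fold, so 2.41 is not a lower bound. Under TNF the Cd55 ratio between genotypes was 1.09 (0.159 to 6.42). Serping1, the gene of C1 inhibitor, had 0, 1, 6 and 5 reads. On the same limit it was 2.76-fold higher in the control labelled Mll1-/- than in the wild-type control (counting interval from 1.63-fold). Under TNF its ratio was 7.25 (0.811 to 343), an interval that includes 1. Cd55b and Cd59b, the copies of Cd55 and Cd59a, had at most 1 and 4 reads in a library.

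The order of the members by level per length differed between genotypes. In the wild-type control it ran from C1ra (6.12 RPKM) through C3 (2.23), Cfb (0.899) and C1s1 (0.768) to Cd59a (0.508), where the counting interval of Cfb (0.700 to 1.14) overlapped that of C1s1 (0.589 to 0.985). In wild type with TNF, C1ra stayed first at 8.55 RPKM, C3 was second at 5.83, and C1s1 at 1.72 stood above Cfb at 0.917 with intervals that did not overlap. In the control labelled Mll1-/- the order was C3 (30.7), C1ra (8.73), C1s1 (5.92) and Cfb (1.40), with no overlap between neighbours. The same 4 kept this order with TNF in cells so labelled, at 46.3, 11.6, 8.79 and 1.07 RPKM.

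A size rule of 2-fold, a log2(RPKM + 0.5) ratio of 1 or more, was used to count genes. With TNF in wild type, 1 of the 4 compared members, C3, was higher and 0 were lower, where 0.521% of all genes compared were higher and 0.0556% lower. C1s1 lay just inside at 0.81, and it passed with a pseudocount of 0.1 RPKM (1.07), which brings the count to 2. With TNF in cells labelled Mll1-/-, 0 of 4 were higher and 0 lower, against 0.688% and 0.16% of all genes. Between genotypes without TNF, 2 of 4 were higher (C3 at 3.52 and C1s1 at 2.34) and 0 lower, against 7.11% higher and 7.99% lower. Under TNF the same 2 were higher (2.88 and 2.07), against 6.71% higher and 4.5% lower. For the difference of the TNF responses 0 of 4 passed, against 0.758% higher and 0.424% lower.

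The median log2 ratio of the 4 members was 0.63 for TNF in wild type, 0.46 for TNF in cells labelled Mll1-/-, 1.41 between genotypes without TNF and 1.24 with TNF. Over all genes compared these medians were -0.02, 0.02, -0.07 and -0.05. The 4 are those that reached 1 RPKM, so neither their counts nor their medians describe the list of 9. Cfb reached 1 RPKM only in the libraries labelled Mll1-/-, so it passed the filter only through the group where it is higher. The counts and medians between genotypes that include Cfb are a description.

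**Figure D3:**
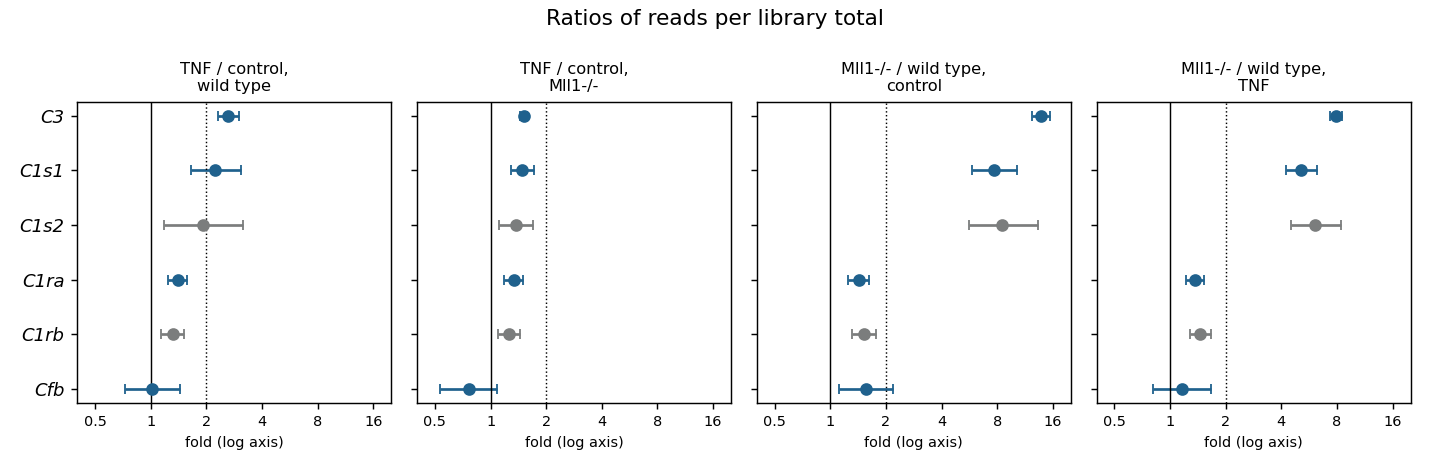
Ratio of reads per library total (log axis) for 4 members (blue) and the close copies C1s2 and C1rb (grey) in the 4 comparisons, with 95% counting intervals, a line at 1 and a dotted line at 2. Between genotypes C3 lies at 13.8 and 7.93 and C1s1 at 7.71 and 5.11, whereas C1ra lies between 1.36 and 1.42 and the interval of Cfb includes 1 in 3 of the 4 comparisons.

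The libraries in which C3 and C1s1 were high were also those with high levels of several fibroblast matrix genes. Of the 8 fibroblast markers compared, 5 were higher past the size rule in the control labelled Mll1-/- than in the wild-type control and 1 was lower, against 7.11% and 7.99% of all genes. The lower one was S100a4, at 2934 and 2692 RPKM in wild-type control and TNF and at 1332 and 2385 in the libraries labelled Mll1-/-. Vim went from 2418 RPKM in the wild-type control to 2177 in the control labelled Mll1-/-, within the size rule. Col3a1, Pdgfra and Dcn reached 1 RPKM only in the libraries labelled Mll1-/-, so these 3 passed the filter only through the group where each is high. Col1a1, a collagen I chain, stood at 105 and 92.5 RPKM in the wild-type libraries and at 337 and 295 in those labelled Mll1-/-, and Col3a1, the collagen III chain, at 0.531, 0.296, 28.1 and 23.5. Dcn had 0, 0, 347 and 554 reads. The part of these marker differences in the C3 and C1s1 results was not tested.

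Beyond the members, 40 further complement genes were listed from general knowledge, of which 28 had an entry and 10 reached 1 RPKM. With TNF none of the 10 passed the size rule in either genotype. Between genotypes without TNF 3 were higher and 2 lower (median -0.19), against 7.11% higher and 7.99% lower over all genes compared. Under TNF 2 were higher and 2 lower (median -0.08), against 6.71% and 4.5%. Clu reached 1 RPKM only in the libraries labelled Mll1-/-, and C4bp and Cd93 only in wild type, so these 3 passed the filter only through the group where each is high, and the counts are a description.

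Among recognition and lectin pathway genes, Colec12, a membrane collectin that binds microbial sugars, stood at 9.10 and 8.98 RPKM in wild-type control and TNF and at 68.1 and 63.6 in the libraries labelled Mll1-/-. It was 7.49-fold higher without TNF (6.96 to 8.07) and, unlike C3, showed no higher level with TNF in either genotype. Masp1, a protease of the lectin pathway, stood at 4.97, 4.29, 13.2 and 8.38 RPKM, which is 2.66-fold higher in the control labelled Mll1-/- than in wild type (2.43 to 2.91) and 1.95-fold higher under TNF (1.76 to 2.16). Within the cells labelled Mll1-/- its reads with TNF were 0.634 of those without (0.583 to 0.690). Masp2, the lectin pathway protease that cuts C4 and C2, stood at 1.37, 1.61, 2.10 and 2.13 RPKM, and C1rl, a C1r-like protease, at 3.07, 2.66, 2.27 and 2.25, and neither passed the size rule.

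Regulators outside the list went both ways between genotypes. C4bp, the gene of a C4b-binding protein that limits the classical convertase, had 384 and 400 reads in the wild-type libraries (7.35 and 7.59 RPKM) and 1 read in each library labelled Mll1-/-. The ratio was 278-fold lower without TNF, with a counting interval from 49.6 to 11013. Clu, the gene of clusterin, which binds terminal complement complexes, went the other way at 0.399, 0.237, 3.69 and 4.33 RPKM, which is 9.25-fold higher with the label Mll1-/- without TNF (5.76 to 15.6) and 18.2-fold higher with TNF (10.1 to 36.1). Cr1l, which encodes the rodent membrane regulator Crry, stood at 26.9, 28.1, 24.5 and 26.6 RPKM, the highest level of any regulator listed, and its ratio between genotypes without TNF turned from below to above 1 when the 20 most abundant genes were left out of the scaling.

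Among receptors, C3ar1, the receptor for the C3 fragment C3a, stood at 3.32, 3.30, 1.71 and 1.46 RPKM, which is 1.94-fold lower with the label Mll1-/- without TNF (1.60 to 2.36) and 2.26-fold lower with TNF (1.84 to 2.80). It was lower in the libraries in which C3 was higher, and it stayed within the size rule in both comparisons (log2 -0.79 and -0.96). Under TNF it passed with a pseudocount of 0.1 RPKM (-1.13) and with the length trend removed (-1.01), which brings the lower count to 3. Cd93, a membrane lectin first described as a C1q receptor, stood at 4.15, 4.87, 0.840 and 0.507 RPKM, 4.93-fold lower without TNF (4.04 to 6.07) and 9.60-fold lower with TNF (7.46 to 12.5). Itgb2, the shared chain of the complement receptors that bind cleaved C3, stood at 3.69, 5.07, 3.01 and 4.74 RPKM, with TNF ratios of 1.37 (1.18 to 1.60) and 1.58 (1.30 to 1.92). Its partner Itgam had at most 3 reads in a library. Summed markers of cells that carry these receptors were also lower with the label Mll1-/-, through 1 gene in each list. The 4 leukocyte markers with an entry, of 9 listed, summed to 23.5, 25.8, 9.53 and 12.1 RPKM, nearly all of it Cd14, while the others had at most 8 reads in any library and Lyz2 went the other way at 0.136, 0.169, 0.236 and 0.245 RPKM. The 4 endothelial markers with an entry, of 5 listed, summed to 0.776, 0.897, 0.193 and 0.172 RPKM. Cdh5 made up most of each sum, at 0.748, 0.866, 0.149 and 0.116 RPKM, while Pecam1 had at most 1 read and Kdr at most 3, neither of them lower with the label. The part of these markers in the receptor differences was not tested.

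**Figure D4:**
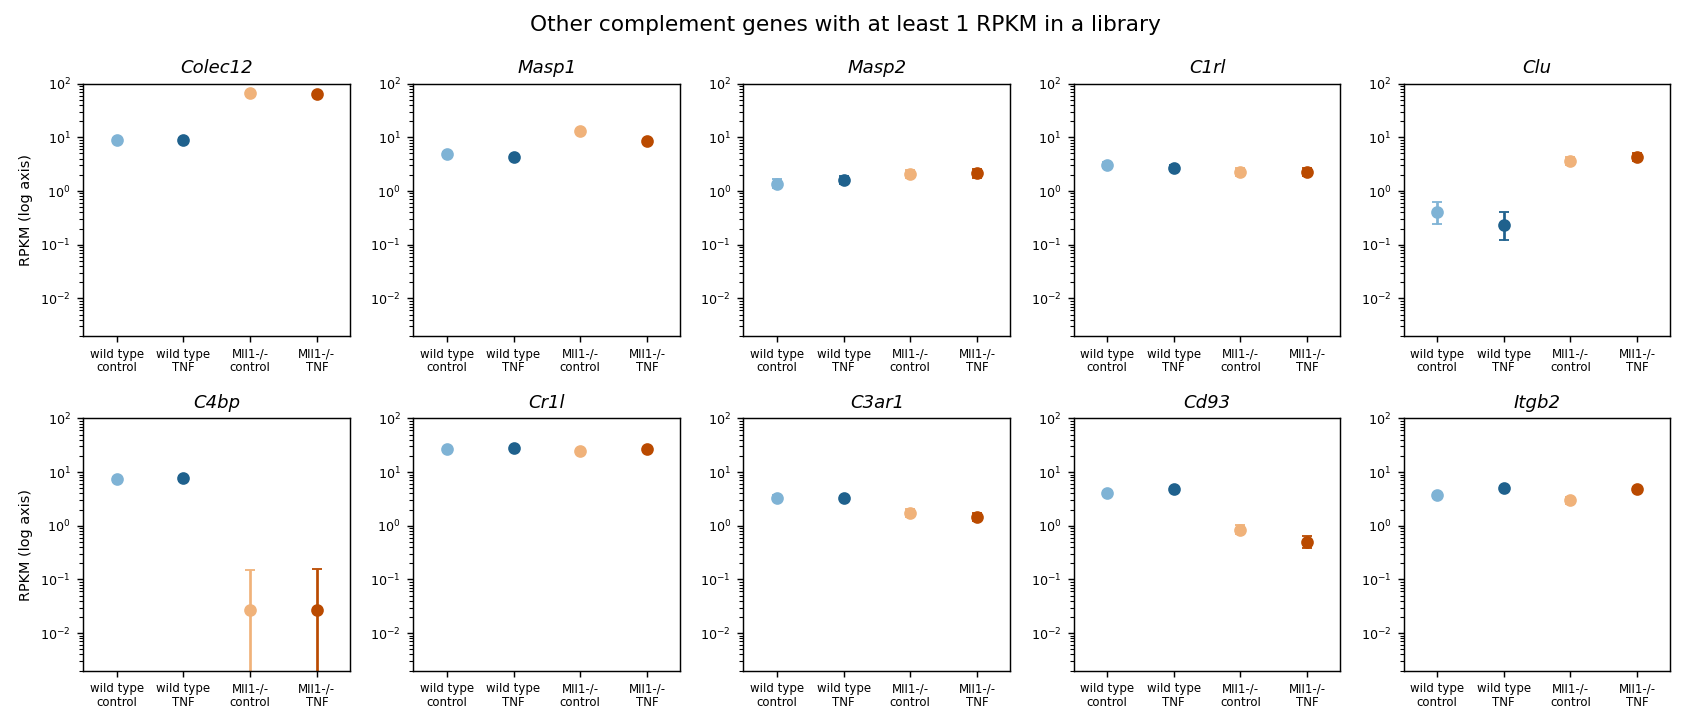
Level in RPKM (log axis) of the 10 further complement genes that reached 1 RPKM in a library, with exact Poisson 95% counting intervals, 1 library per group. Colec12, Clu and Masp1 stand higher in the control labelled Mll1-/- than in wild type, C4bp and Cd93 stand lower, and Cr1l stays between 24.5 and 28.1 RPKM.

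The remaining 18 of the 28 stayed below 1 RPKM, the highest being Cfp, the gene of properdin, at 0.970 RPKM. The 5 genes of the terminal pathway with an entry, whose products build the membrane attack complex, reached at most 0.202 RPKM (C8g). The complement transcripts measured at 1 RPKM or more thus covered initiating proteases, C3, factor B, regulators and receptors, but none of the terminal components with an entry.

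Transcription factors known to act at complement genes were read in the same libraries, as a list of 12 of which 10 had an entry and 9 were compared. With TNF in wild type 2 of the 9 were higher past the size rule, Cebpd and Relb, against 0.521% of all genes, and in cells labelled Mll1-/- 0 were, against 0.688%. Between genotypes without TNF 2 were higher, Cebpd and Nr1h4, and 0 lower, against 7.11% and 7.99%, and Nr1h4 reached 1 RPKM only in the libraries labelled Mll1-/-. Cebpd, a C/EBP family member induced in the acute phase, stood at 1.66, 4.10, 6.08 and 11.3 RPKM in wild-type control, wild-type TNF, control labelled Mll1-/- and TNF with that label. This is the same order of the 4 libraries as for C3 and C1s1, with a smaller ratio between genotypes (3.66-fold without TNF, 2.91 to 4.64). C1ra, C1rb, C1s2 and Masp2 had that order too, so it is not particular to these genes. Nr1h4, the bile acid receptor FXR, stood at 0.412, 0.261, 1.84 and 2.34 RPKM. Cebpb, at 19.0, 30.1, 16.6 and 25.1 RPKM, and Irf1, at 11.1, 17.2, 10.9 and 14.1, stood higher with TNF in both genotypes. The NF-kB subunit gene Nfkb1 stood at 21.2, 34.4, 32.6 and 47.5 RPKM, and Relb at 4.73, 15.0, 7.68 and 14.8. Whether any of these factors bears on the complement genes was not tested.

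The genes with the profile most like each of the 3 widest-ranging members were found among 11114 named genes, by the Euclidean distance of log2(RPKM + 0.5) profiles over the 4 libraries after centring. For C3 they were Pik3r5 (distance 0.44), Cd82 (0.55) and Pcdh1 (0.69). Pik3r5, a regulatory subunit of a phosphoinositide kinase, stood at 0.446, 1.88, 7.32 and 15.2 RPKM, and Cd82, a tetraspanin, at 1.09, 2.61, 23.3 and 35.98. For C1s1 they were Ddx58 (0.17), Il13ra2 (0.22) and Nipal1 (0.30), of which Ddx58, the RNA sensor RIG-I, stood at 0.861, 1.73, 5.70 and 9.997 RPKM. For C1ra they were Noct (0.06), Tmem176b (0.07) and Phlda1 (0.10). With 4 points per profile these distances describe the libraries and no more.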

How the data were processed

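RNA-seq libraries of 4 groups were analysed, 1 library per group. The authors deposited RPKM values per transcript entry, per the file headers. The submitters' processing notes name TopHat and DESeq without a version or role, and the genome build, annotation and read counter were not given in the sources used here. Each of 27340 of 27344 entries (99.99%) gave whole reads in all 4 libraries within 0.0001 reads, which gave totals of 27728647, 27977248, 20081869 and 19306506 reads for wild-type control, wild-type TNF, control labelled Mll1-/- and TNF with that label. The labels do not mention strand.

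Entries were named through a RefSeq table on GRCm38.p6 (20849) or GENCODE M21 metadata (102), and 6393 unnamed entries were kept. The entry with the highest mean RPKM stood for each symbol. Genes of at least 1 RPKM in at least 1 library were compared as log2(RPKM + 0.5), and a ratio of 1 or more in size was counted. With 1 library per group no test was run. Counting intervals (95%) were exact for ratios and levels and normal for differences of log2 ratios. A value of 0 was set against a limit of 3 reads. Calculations used Python 3.11.15, numpy 2.4.6, pandas 2.3.3 and scipy 1.17.1, and were tested on simulated data.

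The members, lists and rules were chosen with earlier results of these data known. Named are all members, their close copies, listed complement genes of at least 1 RPKM, listed factors and markers, neighbouring genes, and the 3 genes most alike to each of the 3 widest-ranging members. Factors, markers and low genes named singly, and protein-coding neighbours, were chosen after their values were seen. Alternatives changed the pseudocount, filter, scaling, length trend, entry choice and size rule.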

Additional observations from a re-analysis of the deposited data

Results flagged for a closer look

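The 4 compared members and the 10 further complement genes that reached 1 RPKM were read for a difference in TNF ratio between genotypes. It was taken as the log2 ratio of reads in cells labelled Mll1-/- less that in wild type. For 4 of these genes it exceeded counting error. No test against the spread between cultures was possible with 1 library per group. The difference was -0.80 for C3 (counting interval -0.99 to -0.60), with ratios of 1.51 and 2.62, and -0.59 for C1s1 (-1.07 to -0.12), with ratios of 1.49 and 2.24. For Masp1 it was -0.44 (-0.64 to -0.25), with ratios of 0.634 and 0.863. For Cd93 it was -0.96 (-1.42 to -0.50), with ratios of 0.604 and 1.17, so the TNF library was the lower one with the label Mll1-/- and the higher one in wild type. The share of all genes compared that exceeded counting error in the same way was not counted. On the log2(RPKM + 0.5) scale, all genes compared ran from -0.58 to 0.77 once a small share at each end was left out. C1s1 (-0.27, rank 2107 from the lowest of 14386) and Masp1 (-0.44) lay inside that range. C3 (-0.63, rank 250) and Cd93 (-0.62) lay just below it. The sizes of all 4 differences also depended on the processing, as given below.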

How the results depend on the processing

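Of 75 counts of genes past the size rule under an alternative, 4 moved by more than 1.5 times. The members higher with TNF in wild type went from 1 to 2 with a pseudocount of 0.1 RPKM, to 2 with a 1.5-fold size rule and to 2 with reads and no pseudocount, an alternative chosen after seeing the data, and C1s1 was the second each time. The members past the rule for the difference of TNF responses went from 0 to 1, C3, with the 1.5-fold rule. Over 70 single-gene results with 460 alternative values, 446 kept their sign and 0 of those past the size rule changed sign. In size, 30 of the 460 shifted from the main value by more than the counting interval reaches to either side of its middle, in log2. A value counted here need not lie outside the interval, which was computed on reads without a pseudocount. Scaling to equal sums without the 20 most abundant genes shifted the median log2 ratio of all genes by 0.28 between genotypes without TNF, by 0.10 with TNF, by -0.15 for TNF in cells labelled Mll1-/- and by -0.17 for the difference of responses. The C3 log2 ratio between genotypes without TNF was 3.79 under that scaling and 3.27 with the trend in transcript length removed, against 3.52. The C1ra log2 ratio there was 0.76 under that scaling, against 0.48. For TNF in cells labelled Mll1-/- the C3 log2 ratio was 0.42 under that scaling and 0.74 with the length trend removed, against 0.58. The Masp1 difference of TNF responses, as log2(RPKM + 0.5), was -0.62 and -0.23 in the same order, against -0.44. That difference was -0.80 and -0.44 against -0.63 for C3, and -0.43 and -0.22 against -0.27 for C1s1. For Cd93 it was -0.75 and -0.38 against -0.62. Depth limits Serping1, Cd55, Cd59a and C4b, which had at most 24 reads in a library. No paired analysis was possible because each group is 1 pooled library.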

Other observations

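Genes beside the members in the RefSeq table were read for comparison. The nearest protein-coding gene that had an entry was added where the nearest gene was a non-coding RNA or a pseudogene, a choice made after the values were seen. Beside C3 lie Tnfsf9, which encodes the ligand of the lymphocyte receptor 4-1BB, and Trip10, a Cdc42-binding protein gene. Tnfsf9 stood at 6.63, 5.78, 4.74 and 6.65 RPKM in wild-type control, wild-type TNF, control labelled Mll1-/- and TNF with that label, and Trip10 at 17.4, 18.0, 21.3 and 25.1. Between genotypes without TNF these were 0.715-fold (0.567 to 0.898) and 1.22-fold (1.11 to 1.34), where C3 was 13.8-fold.

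C1s1 lies beside C1ra and C1rb, whose ratios between genotypes without TNF were 1.42 and 1.52, where C1s1 was 7.71-fold. Beside Cfb lies Nelfe, the gene of a negative elongation factor subunit, at 32.6, 30.6, 35.9 and 35.7 RPKM. Beside C4b lie Tnxb, the gene of the matrix protein tenascin XB, at 0.570, 0.437, 0.547 and 0.521 RPKM, and Cyp21a1, with at most 3 reads in a library. Beside Serping1 lie the non-coding RNA gene Gm19426 and the protein-coding genes Ypel4 and Ube2l6. Gm19426 stood at 0.894, 0.689, 1.23 and 2.497 RPKM from 14 to 35 reads. Another entry holds the same values, so they may not be particular to Gm19426. Ypel4 had at most 1 read in a library, and Ube2l6 is the gene of the conjugating enzyme for the interferon-induced modifier ISG15. Ube2l6 stood at 3.06, 3.59, 6.32 and 7.57 RPKM, which is 2.07-fold higher with the label Mll1-/- without TNF (1.63 to 2.63).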
